A study of Mus musculus with 24 samples.

Results

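Glucose-6-phosphatase and the genes around it in glucose metabolism were followed in mouse adrenal glands in which Prkar1a was deleted by a Cre placed in the Cyp11b2 gene. The set holds 8 genes of the 21957 with a gene symbol of their own on the array: G6pc, Slc37a4, Pck1, Fbp1, Slc2a1, Hk1, Hk2 and Ppargc1a. They were taken by symbol, with the probe set of the highest mean where a gene had several. G6pc was chosen because earlier results of these data had shown it higher in KO than in WT glands, so its values for that comparison are a description and carry no test. The other members were named as its partners in glucose handling, and 7 of the 8 passed the filter on dim genes (a log2 value over 5 in at least 4 arrays). Fbp1 did not pass.

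Whole adrenal glands were taken at 7 months from mice of a mixed sv129-C57Bl/6 strain and hybridised to 24 arrays, 4 for each of 6 groups. All 3 KO groups (females, intact males, and males gonadectomised during the last 2 months, written GDX) were Prkar1afl/fl;cre/+;mTmG/mTmG, where Cre was inserted in the Cyp11b2 locus and mTmG is a fluorescent reporter of Cre activity. The mice labelled WT were not of 1 genotype: WT females were Prkar1afl/+;cre/+, WT intact males were Prkar1afl/fl without Cre, and of the WT GDX males array 1 was Prkar1a+/+ without Cre, arrays 2 and 3 were Prkar1a+/+ with Cre, and array 4 was Prkar1afl/+ with Cre. Every mouse was homozygous for the reporter except WT GDX mouse 2 (mTmG/+). Cyp11b2 encodes aldosterone synthase of the outer cortex, so in mice that carried Cre it was driven in part of the gland's cells, while the arrays measured the whole gland. WT females, WT intact males and WT GDX males thus differed in alleles as well as in sex or surgery, and the contribution of either cannot be told apart in comparisons among them. KO intact males carried Cre and WT intact males did not, so loss of Prkar1a and Cre itself cannot be told apart there. Comparisons of the KO difference between females, intact males and GDX males also rest on WT groups of different genotypes.

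Glucose-6-phosphatase works in the endoplasmic reticulum, where it releases free glucose from glucose 6-phosphate, the last step of both gluconeogenesis and glycogen breakdown. It needs a transporter, encoded by Slc37a4, to bring its substrate in from the cytosol, and it acts against the hexokinases, which trap glucose by phosphorylating it. In liver, G6pc, Pck1 and the coactivator gene Ppargc1a are classic targets of cAMP, protein kinase A (PKA) and the transcription factor CREB. Prkar1a encodes a regulatory subunit that holds PKA inactive, and its loss raises PKA activity.

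The promoters of those 3 genes are shown because cAMP acts on these genes in liver through elements of their promoters. Each is the RefSeq window of 300 bases of the assembly GRCm38.p6, from 250 before the start site, written 5′ to 3′ on the gene's strand. Capitals mark matches to the motifs searched, which were the cAMP response element TGACGTCA, its core TGACG, contained in that element and read as CGTCA where it lies on the other strand, and TTACGTAA, a motif chosen after reading the G6pc window.
G6pc, chr11:101367466-101367765, plus strand: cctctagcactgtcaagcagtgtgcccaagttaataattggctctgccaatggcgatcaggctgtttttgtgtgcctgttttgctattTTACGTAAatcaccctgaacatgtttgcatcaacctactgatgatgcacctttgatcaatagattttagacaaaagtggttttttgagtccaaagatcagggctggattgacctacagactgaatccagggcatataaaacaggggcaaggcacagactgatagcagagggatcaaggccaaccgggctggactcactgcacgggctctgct
Pck1, chr2:173152823-173153122, plus strand: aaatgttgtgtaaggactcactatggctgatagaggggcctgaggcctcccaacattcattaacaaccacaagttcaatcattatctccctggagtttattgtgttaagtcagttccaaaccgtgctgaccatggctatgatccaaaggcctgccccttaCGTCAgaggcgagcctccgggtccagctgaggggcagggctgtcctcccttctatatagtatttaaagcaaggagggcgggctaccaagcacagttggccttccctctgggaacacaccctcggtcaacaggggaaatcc
Ppargc1a, chr5:51567676-51567975, minus strand: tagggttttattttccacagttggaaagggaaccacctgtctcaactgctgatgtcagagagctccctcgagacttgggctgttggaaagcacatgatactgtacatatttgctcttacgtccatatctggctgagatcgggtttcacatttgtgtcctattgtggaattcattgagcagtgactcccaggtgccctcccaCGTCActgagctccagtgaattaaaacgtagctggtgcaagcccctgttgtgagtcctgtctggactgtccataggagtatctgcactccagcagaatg
The G6pc window held TTACGTAA, starting at position -162 with the start site counted as 0, and no copy of the core on either strand. Of 32851 windows, 0.119% held TTACGTAA. The core was found as CGTCA at -90 in the Pck1 window, at -49 in the Ppargc1a window and at -50 in that of Hk2, and it occurred in 20.8% of all windows. TGACGTCA, present in 1.79% of all windows, was in none of the windows of the 8 members, all of which had an entry. Slc37a4 had 3 windows, of which 2 held the core.

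The deletion and the tissue were checked first. Prkar1a was lower in KO glands by a log2 difference of -1.43 ± 0.23 in females and -1.19 ± 0.23 in GDX males (limma adjusted p 5.83e-05 and 0.00477). In intact males the difference was -0.92 ± 0.23 (adjusted p 0.16), with 6.89, 8.08, 8.47 and 8.13 in KO against 8.72 to 8.91 in WT. Array 1 of the KO intact males had the lowest Prkar1a value of all arrays but KO female array 4. Cyp11b2, the gene in which Cre was placed, was 7.47 to 9.10 in KO females, against 9.71 to 11.11 in WT females. Its values were 9.91 to 11.09 against 11.01 to 11.79 in intact males, and 9.89 to 10.55 against 9.80 to 11.42 in GDX males. The mean of 9 adrenal cortex markers lay between 11.67 and 12.11 on every array, and 6 or 7 of 10 kidney markers, Lrp2 and Slc12a3 in every group, stood at or under 5 on all arrays of a group. The cortex mean was higher in KO than in WT females (12.02 to 12.11 against 11.74 to 11.83). It was also higher in KO than in WT GDX males (11.91 to 12.03 against 11.67 to 11.86), while the intact male groups overlapped. At an adjusted p under 0.05, the fit called 32.6% of the 14411 genes tested in KO against WT females, 4.23% in GDX males and 0.111% in intact males.

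G6pc, the catalytic subunit, stood higher in KO glands of both sexes and after gonadectomy. Its log2 signal was 6.75, 6.20, 6.45 and 7.98 in KO females, against 5.60, 5.16, 5.42 and 5.53 in WT females. It was 8.81, 6.98, 7.11 and 7.11 in KO intact males, against 5.58, 4.91, 4.87 and 5.26 in WT intact males. In GDX males the values were 7.51, 5.76, 7.23 and 7.56 in KO glands and 4.75, 4.85, 5.07 and 5.23 in WT glands. All 12 KO arrays lay above all 12 WT arrays, the lowest KO value being 5.76 and the highest WT value 5.60. In a whole gland, more cells that express a gene and more RNA per cell cannot be told apart.

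The difference in G6pc between KO and WT females was 1.42 ± 0.40 (SE; 95% interval 0.58 to 2.25). Intact males gave 2.35 ± 0.40 (1.51 to 3.18), and GDX males gave 2.04 ± 0.40 (1.20 to 2.88). On the linear scale these are 2.67-fold, 5.09-fold and 4.11-fold. Ranked by size among the 14411 genes, G6pc was number 2 in intact males, number 9 in GDX males and number 95 in females. WT glands were close to the dim limit, with 2 of 4 arrays over 5 in WT intact males and in WT GDX males, so the size of the difference is measured from a level that is hard to read. Under the alternatives tried, the difference lay between 1.04 and 1.65 for females, 1.91 and 2.52 for intact males, and 1.86 and 2.46 for GDX males. In GDX males, where equal replicate numbers deviated together, a replicate block with the GDX groups fitted alone gave 2.04 ± 0.28 and called 118 genes, against 49 for the same groups without the block. The fit of all 6 groups called 609 without it.

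By group mean, G6pc ran in the order KO intact males (7.50 ± 0.87, SD, n = 4), KO GDX males (7.02 ± 0.85), KO females (6.85 ± 0.79), WT females (5.43 ± 0.19), WT intact males (5.15 ± 0.33) and WT GDX males (4.98 ± 0.22). Neighbours within KO and within WT overlapped, and the only gap lay between KO females and WT females. The KO difference was smaller in females than in intact males by 0.93 ± 0.57 (interval of females minus intact males -2.11 to 0.25), which reaches past 0. The corresponding values were -0.62 ± 0.57 for females minus GDX males and -0.31 ± 0.57 for GDX minus intact males. KO arrays also spread more than WT arrays, and the highest value of all, 8.81, was on KO male array 1, the array with the low Prkar1a value.

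**Figure D1:**
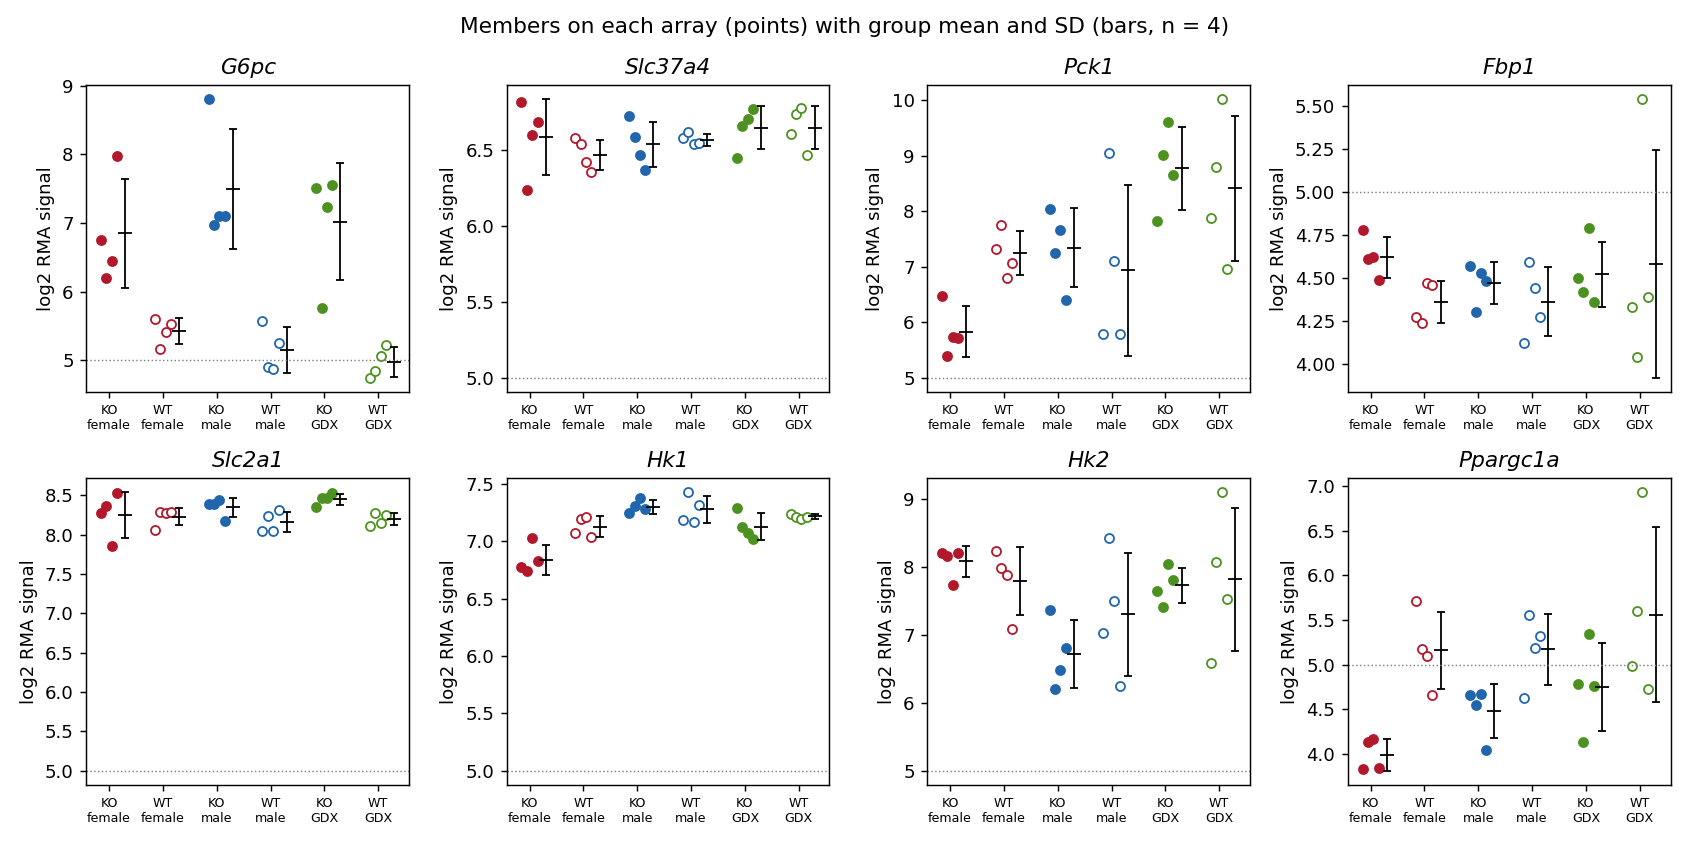
Log2 RMA signal (y axis) of the 8 genes on each of 24 arrays, in 6 groups (x axis), with KO as filled and WT as open points and bars for the group mean and SD (n = 4). The dotted line marks the dim limit of 5. All 12 KO values of G6pc, a gene chosen on that comparison, lie above all 12 WT values, while Slc37a4 stays between 6.24 and 6.82.

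Slc37a4, the transporter that feeds glucose 6-phosphate to the phosphatase, showed no such difference. Its signal was between 6.24 and 6.82 on all 24 arrays. KO and WT females differed by 0.11 ± 0.10 (adjusted p 0.445, interval -0.10 to 0.33). The difference was -0.03 ± 0.10 for intact males (adjusted p 0.974, interval -0.25 to 0.18), and for GDX males 0.00 ± 0.10 (adjusted p 0.993, interval -0.22 to 0.21). Changes of the size seen for its partner G6pc lie outside these intervals.

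Of the gluconeogenic enzymes upstream, Pck1, cytosolic phosphoenolpyruvate carboxykinase, was 6.47, 5.39, 5.74 and 5.71 in KO females, against 7.32, 7.75, 6.80 and 7.07 in WT females. The groups did not overlap, as for 32.8% of all genes in that comparison, and the difference of -1.41 ± 0.62 did not pass the test (adjusted p 0.0877). With the female groups fitted alone, it did (adjusted p 0.00294). In intact males Pck1 was 8.04, 7.25, 7.66 and 6.40 in KO against 5.78, 9.04, 7.10 and 5.79 in WT (difference 0.41 ± 0.62, adjusted p 0.942). In GDX males it was 7.82, 9.01, 9.61 and 8.65 in KO against 7.88, 8.80, 10.02 and 6.95 in WT (0.36 ± 0.62, adjusted p 0.809). Both WT male groups spread over more than 3 log2 units and overlapped the KO groups.

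Fbp1, fructose bisphosphatase, was too dim to test. It lay between 4.04 and 5.54, and 1 of 24 arrays, WT GDX array 3, exceeded 5.

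Slc2a1, the glucose transporter GLUT1, was called in none of the KO comparisons. It was 8.35, 8.46, 8.46 and 8.53 in KO GDX males, against 8.11, 8.28, 8.15 and 8.25 in WT GDX males. These groups did not overlap, as for 9.62% of genes, and the difference of 0.25 ± 0.11 did not pass (adjusted p 0.183). Intact males gave 0.18 ± 0.11 (adjusted p 0.756), and females 0.02 ± 0.11 (adjusted p 0.889). A second Slc2a1 probe set read 4.69 to 5.44, at the dim limit, and gave -0.15 ± 0.11 in intact males.

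Hk1, the hexokinase found in most tissues, fell in KO females on the probe set used. It was 6.78, 6.74, 7.03 and 6.83 there, against 7.07, 7.20, 7.21 and 7.04 in WT females (-0.28 ± 0.07, adjusted p 0.00461). The groups did not overlap, as for 32.8% of all genes. For intact males the difference was 0.03 ± 0.07 (adjusted p 0.972), and for GDX males -0.09 ± 0.07 (adjusted p 0.538). The KO difference was lower in females than in intact males by -0.31 ± 0.10 (adjusted p 0.0423), in a contrast that called 16% of all genes. That call ended in 10 of 16 fits without 1 array (WT female arrays 2 or 3, KO female arrays 1, 2 or 4, WT male arrays 1 or 3, and KO male arrays 2, 3 or 4), with adjusted p of 0.0529 to 0.0907. A second Hk1 probe set, shared with the antisense gene Hk1os, was not used. It read 6.15 to 6.26 in KO females and 6.09 to 6.18 in WT females, so it did not show the fall. Which of the genes it measures was not checked.

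Hk2, the inducible hexokinase of muscle and fat, was 8.20, 8.16, 7.74 and 8.21 in KO females, against 8.23, 7.98, 7.88 and 7.08 in WT females (0.28 ± 0.42, adjusted p 0.658). In intact males it was 7.37, 6.21, 6.48 and 6.80 in KO against 7.03, 8.43, 7.50 and 6.25 in WT (-0.59 ± 0.42, adjusted p 0.831). GDX males had 7.65, 7.41, 8.04 and 7.80 in KO and 6.58, 8.07, 9.10 and 7.53 in WT (-0.09 ± 0.42, adjusted p 0.94). The groups overlapped in each pair, and WT GDX males ran over more than 2 log2 units.

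Ppargc1a, the gene of the coactivator PGC-1alpha, was lower in KO females. Its values were 3.83, 4.13, 4.17 and 3.84 in KO females, against 5.71, 5.17, 5.10 and 4.66 in WT females (-1.16 ± 0.34, adjusted p 0.0127). All KO female arrays were under 5, so the size of the difference rests on values too dim to read well. Of the 9 arrays over 5, through which the gene passed the filter, 8 were WT arrays, so its p is given as a description and not as a test. In intact males it was 4.66, 4.55, 4.67 and 4.04 in KO against 4.62, 5.56, 5.19 and 5.32 in WT (-0.69 ± 0.34, adjusted p 0.682). The GDX groups differed by -0.81 ± 0.34 (adjusted p 0.192), with 4.13 to 5.34 in KO and 4.73 to 6.93 in WT. KO was lower than WT in the mean of all 3 pairs. That direction and the intervals of the differences carry the same limit of the filter, and nothing is read from them.

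**Figure D2:**
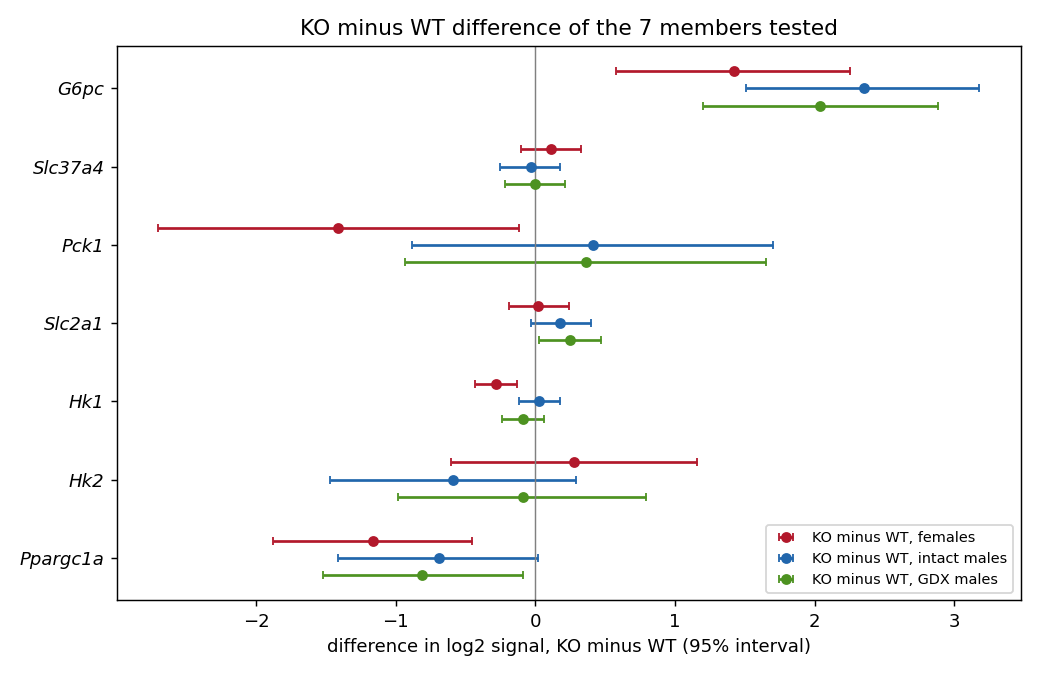
KO minus WT difference in log2 signal (x axis) with its 95% interval from the fit over all genes, for the 7 genes tested (y axis), in females, intact males and GDX males. G6pc lies at 1.42, 2.35 and 2.04, and Slc37a4 within 0.11 of 0 in each setting.

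Counted over the 7 genes that passed the filter, 3 were called in KO against WT females: 1 upwards (G6pc) and 2 downwards (Hk1 and Ppargc1a), where 13.9% of all genes were called up and 18.7% down. In intact males and in GDX males G6pc alone was called. Among all genes 2.26% were called up and 1.97% down in GDX males, and the arrays of KO and WT did not overlap for 4.45% of genes in intact males. G6pc was chosen on this contrast, and Ppargc1a entered through its WT arrays, so nothing is read from their part in these counts. Besides those genes, Hk1 alone was called in females, downwards as for 18.7% of all genes. The median difference of the 7 was 0.02 for females, 0.03 for intact males and 0.00 for GDX males, against -0.02, -0.01 and -0.01 over all genes.

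Gonadectomy called none of the 7 by limma, in KO males (15.4% of all genes called) or in WT males (4.5%). At an unadjusted limma p under 0.05 there were Pck1, Hk1 and Hk2 in KO males and Pck1 in WT males. Among all 14411 genes tested, 4316 had such a p in KO males and 2565 in WT males. Pck1 was 1.44 ± 0.62 higher in KO GDX than KO intact males (adjusted p 0.122) and 1.49 ± 0.62 higher in WT GDX than WT intact males (adjusted p 0.201). The second of these passed without WT male array 2, the array at 9.04 (2.19, adjusted p 0.0372). Hk2 was 7.41 to 8.04 in KO GDX males and 6.21 to 7.37 in KO intact males, with no overlap, as for 19% of genes (1.01 ± 0.42, adjusted p 0.11). G6pc differed by -0.48 ± 0.40 between GDX and intact KO males (adjusted p 0.459) and by -0.18 ± 0.40 in WT males (adjusted p 0.876).

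Between the sexes, Hk2 was higher and Hk1 lower in KO females than in KO intact males. The difference was 1.36 ± 0.42 for Hk2 (adjusted p 0.0133) and -0.46 ± 0.07 for Hk1 (adjusted p 2.97e-05). Neither gene's arrays overlapped, as for 36.6% of genes. These were 2 of 7 in a comparison that called 41% of all genes (17.8% up, 23.1% down), so the share of the set is below the background. In WT glands 0 of 7 were called, against 7.75% of all genes, and Hk1 alone had an unadjusted p under 0.05 (-0.15 ± 0.07, adjusted p 0.219). Such a p was held by 3160 of the 14411 genes in that comparison. Pck1 was lower in KO females than in KO intact males by -1.51 ± 0.62 (adjusted p 0.0577). G6pc was -0.66 ± 0.40 in the same comparison (adjusted p 0.205) and 0.27 ± 0.40 in WT (adjusted p 0.753).

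The tests of whether the KO difference itself varied called Hk1 alone for females minus intact males. With the adipocyte mean as a covariate that call passed to Hk2 (1.89 ± 0.34, adjusted p 0.00163), and Hk1 was -0.29 ± 0.11 (adjusted p 0.0896). With the medulla mean as a covariate neither was called (-0.11 ± 0.12 for Hk1, -0.10 ± 0.73 for Hk2). They called 0 of 7 for females minus GDX males (3.31% of all genes called) and 0 of 7 for GDX minus intact males (0.0278%). At an unadjusted p under 0.05, none of the 7 was added in either, beside 2715 and 1361 of the 14411 genes.

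Several members varied with markers of fat cells. The mean of 10 adipocyte markers was 7.54 to 8.14 in KO females, against 8.50 to 9.72 in WT females, and 6 of the 10 fell (Adipoq, Car3, Cidec, Fabp4, Lpl and Retn). Among all genes 18.7% were called down there. Plin1 (-0.04 ± 0.17) and Lep (0.01 ± 0.54) were among the markers not called. In intact males the marker mean was 7.68 to 9.18 in KO against 7.95 to 9.75 in WT, and in GDX males 8.94 to 9.51 against 8.58 to 10.50. Ucp1, the uncoupling protein of brown fat, ran between 4.16 and 12.07. No adipocyte marker was at or under 5 on all arrays of a group.

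Markers of other cells also differed between KO and WT females. The mean of 10 macrophage markers was 7.53 to 8.63 in KO females, against 7.01 to 7.36 in WT females, and 4 of the 10 rose (Cd163, Mrc1, Adgre1 and C1qa). Among all genes 13.9% were called up and 18.7% down in that comparison. Of 7 liver markers tested, Alb fell (-1.15 ± 0.44, adjusted p 0.0491), with 5.48 to 6.13 in KO females against 4.94 to 8.82 in WT females. Of 8 endothelial markers, Cdh5 fell (-0.50 ± 0.15, adjusted p 0.0116), and of the kidney markers Nphs1 rose (0.24 ± 0.08, adjusted p 0.0234). Of 9 adrenal cortex markers, those called were Mrap (1.21 ± 0.11), Scarb1 (0.93 ± 0.09), Cyp21a1 (0.20 ± 0.06), Cyp11a1 (0.18 ± 0.05) and Star (0.12 ± 0.05), all upwards. The part of these cells in the values of the members was not tested.

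With group means subtracted, the adipocyte mean correlated over 24 arrays with Hk2 (Pearson's r 0.87), Pck1 (0.84), Ppargc1a (0.73) and Slc37a4 (0.53). The r was 0.16 for G6pc, 0.12 for Hk1 and 0.06 for Slc2a1. The mean of the endothelial markers gave 0.56 for Ppargc1a and 0.54 for Pck1, and that of the macrophage markers 0.44 for Hk1 and 0.43 for Pck1. These are descriptions over arrays that share groups and normalization. WT GDX array 3 was the extreme, with the highest adipocyte mean (10.50) and Ucp1 (12.07) together with the highest Pck1 (10.02), Hk2 (9.10), Ppargc1a (6.93) and Fbp1 (5.54) of all arrays. Its G6pc value was 5.07, inside its group.

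**Figure D3:**
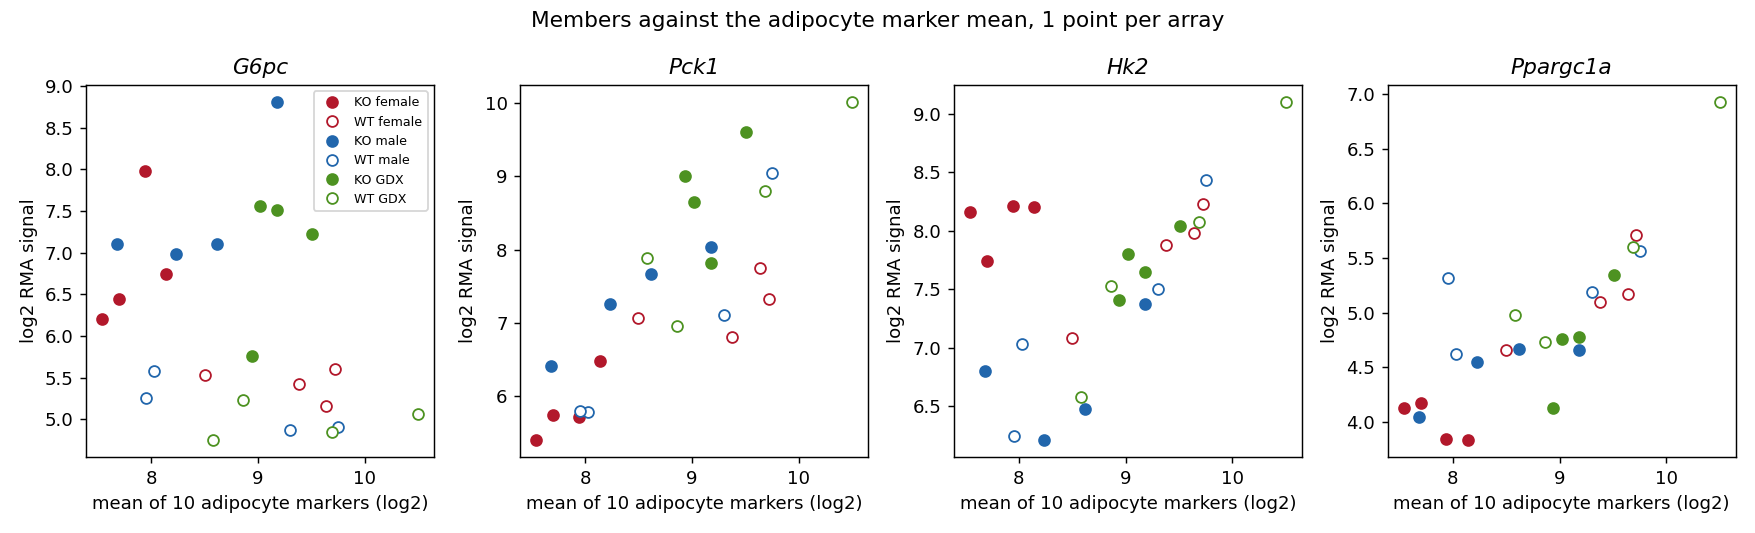
Log2 signal (y axis) of G6pc, Pck1, Hk2 and Ppargc1a against the mean of 10 adipocyte markers (x axis), 1 point per array, KO filled and WT open. Pck1 and Ppargc1a follow the marker mean, the 4 KO females lie above the other arrays of similar marker mean in Hk2, and the KO arrays of G6pc lie above the WT arrays at any marker mean.

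With the adipocyte mean as a covariate, the KO difference in females was 0.47 ± 0.44 for Pck1 (adjusted p 0.468), the opposite sign, and -0.26 ± 0.30 for Ppargc1a. Hk2 then differed by 1.60 ± 0.28 (adjusted p 0.000326). With Ucp1 in its place, the values were -0.79 ± 0.48 for Pck1, -0.82 ± 0.26 for Ppargc1a and 0.81 ± 0.23 for Hk2 (adjusted p 0.00884). The Ppargc1a values carry the limit of the filter given above and are a description. With the adipocyte covariate, G6pc differed by 1.65 ± 0.51 for females, 2.40 ± 0.41 for intact males and 2.08 ± 0.41 for GDX males.

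Hk1 varied with markers of the medulla, the catecholamine-making core of the gland. The mean of 12 medulla markers was 8.63 to 9.23 in KO females, against 9.30 to 9.70 in WT females, and 9.76 to 10.03 in KO intact males. Its r with Hk1 was 0.85 over all arrays and 0.58 with group means subtracted. For the adrenal cortex mean, r with Hk1 was -0.77 and -0.31. With the medulla mean as a covariate, Hk1 differed by -0.15 in KO against WT females (adjusted p 0.219) and by -0.22 ± 0.11 in KO females against KO intact males (adjusted p 0.245), and Hk2 by 0.19 ± 0.69 in the second comparison (adjusted p 0.906). G6pc was then 1.12 ± 0.51 in females.

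The wider pathway was followed in 6 lists of glucose genes. In the phosphatase and gluconeogenesis list, 3 of 10 tested genes were called up in KO females and 1 down, beside 13.9% of all genes called up and 18.7% down (32.6% in all). Besides G6pc these were Slc37a2 (1.04 ± 0.12, adjusted p 1.92e-06) and Slc37a1 (0.50 ± 0.11, adjusted p 0.00117), relatives of Slc37a4 that carry sugar phosphates across the endoplasmic reticulum membrane, and Pck2, the mitochondrial carboxykinase (-0.42 ± 0.10, adjusted p 0.00277). G6pc was chosen on the KO against WT comparison, so nothing is read from its part in the counts of this list. The median of the list was 0.10, and with the medulla covariate 2 of the 10 were called. In GDX males Slc37a1 was called beside G6pc (0.41 ± 0.11, adjusted p 0.0339), where 2.26% of all genes were called up. Those 2 calls became 1 with the replicate block in the GDX groups alone and 0 with those groups and no block, and 1 without WT GDX array 2 or 3 or KO GDX array 2, 3 or 4. The KO difference of Slc37a2 was larger in females than in intact males by 1.10 ± 0.17 (adjusted p 0.000425) and than in GDX males by 0.65 ± 0.17 (adjusted p 0.0376).

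In glycolysis, 3 of 16 genes rose and 4 fell in KO females, beside 13.9% and 18.7% of all genes, with a median of -0.14. Aldoc, the brain-type aldolase (1.01 ± 0.12, adjusted p 2.49e-06), and Pgam1, phosphoglycerate mutase (0.93 ± 0.13, adjusted p 1.45e-05), rose. Eno3, the muscle enolase (-0.88 ± 0.21, adjusted p 0.00343), and Ldhb, a lactate dehydrogenase subunit (-0.79 ± 0.15, adjusted p 0.000312), fell. In GDX males the called genes were 2 up and 2 down, Pgam1 (0.47 ± 0.13), Aldoc (0.43 ± 0.12), Eno3 (-0.92 ± 0.21) and Ldhb (-0.53 ± 0.15), at adjusted p of 0.0179 to 0.0455. Those 4 calls became 1 with the replicate block in the GDX groups alone and 0 with those groups and no block, and were 0 to 2 in 7 of 8 fits that left out 1 GDX array, the exception being KO GDX array 1.

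Of the glucose transporters, 2 of 10 fell and 0 rose in KO females, near the 18.7% of all genes that fell. They were Slc2a4, the insulin-regulated GLUT4 of fat and muscle (-1.73 ± 0.31, adjusted p 0.000247), and Slc2a5, a fructose transporter (-1.02 ± 0.33, adjusted p 0.0205). With the adipocyte covariate, 1 of the 10 was called, and 1 also without WT female array 1 or 3 or KO female array 1. In the pentose phosphate pathway 3 of 6 rose and 0 fell, beside 13.9% and 18.7% of all genes: Pgd (0.53 ± 0.15, adjusted p 0.0109), H6pd (0.26 ± 0.09, adjusted p 0.0272), which acts on glucose 6-phosphate inside the endoplasmic reticulum, and Rpe (0.26 ± 0.07, adjusted p 0.0104). None of the 6 was called with the medulla covariate.

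Among 17 glycogen genes, 3 rose and 3 fell in KO females, a share near the 32.6% of all genes called. The largest were Pygm, muscle glycogen phosphorylase (-1.52 ± 0.51, adjusted p 0.0267), Ppp1r3c, a glycogen-targeting phosphatase subunit (-1.39 ± 0.42, adjusted p 0.0158), Phkg1, a phosphorylase kinase subunit (0.76 ± 0.17, adjusted p 0.00173), and Pgm2, a phosphoglucomutase (0.60 ± 0.08, adjusted p 1.06e-05). With the adipocyte covariate, 10 of the 17 were called.

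Of 27 regulators, 12 fell (Ppargc1a, with the limit given above, among them) and 4 rose in KO females, beside 18.7% and 13.9% of all genes, with a median of -0.19. Mlxipl, the carbohydrate-responsive factor ChREBP (-1.20 ± 0.33, adjusted p 0.00713), Irs1, an insulin receptor substrate (-0.86 ± 0.10, adjusted p 1.87e-06), and Pdk3, a pyruvate dehydrogenase kinase (-0.82 ± 0.13, adjusted p 4.48e-05), fell the most besides Ppargc1a. Creb1 and the 3 CREB coactivator genes Crtc1, Crtc2 and Crtc3 were among the 12, with differences of -0.19 to -0.41. The adipocyte covariate and the medulla covariate each left 9 called. In GDX males Nr3c1, the glucocorticoid receptor, was the 1 gene called (-0.46 ± 0.13, adjusted p 0.0422), and the count was 0 with the replicate block in the GDX groups alone and 0 to 4 with 1 GDX array left out.

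In intact males, G6pc was the 1 gene called in all 6 lists, in a comparison that called 16 genes in all. As G6pc was chosen on KO against WT, nothing is read from that call. Eno3 differed there by -0.83 ± 0.21 (adjusted p 0.198). None of the lists was tested as a set.

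**Figure D4:**
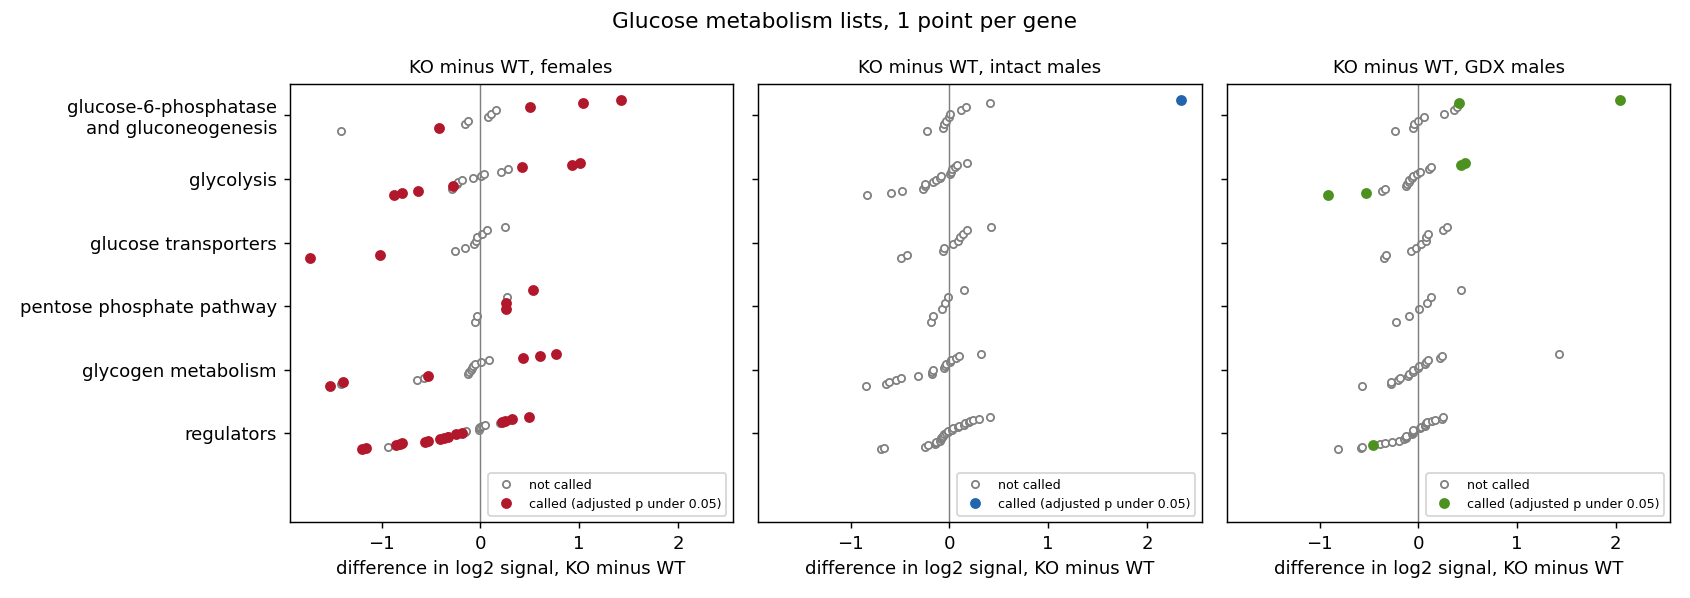
KO minus WT difference in log2 signal (x axis), 1 point per gene, for 6 lists of glucose genes (y axis) in females, intact males and GDX males, with filled points for genes at an adjusted p under 0.05. Called genes lie on both sides of 0 in females, and G6pc, at the right, is the 1 filled point in intact males.

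The comparisons of sex and gonadectomy also moved genes of the lists. Pcx, pyruvate carboxylase, was higher in GDX than in intact males in both KO and WT glands. Cebpb, a liver-enriched transcription factor gene, was higher in GDX than in intact males and in females than in intact males, in both genotypes. Pfkfb2, an enzyme that sets the level of a glycolytic activator, was lower in the same 4 comparisons. Among all genes, gonadectomy called 15.4% in KO and 4.5% in WT males, and sex called 41% in KO and 7.75% in WT glands. Other genes of the lists were called there and are not named.

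The 5 genes whose values were most like those of G6pc, by Pearson's r over the 24 arrays among 14410 genes, were Cdh22 (0.85), Gm19389 (0.82), Dtna (0.81), Pex5l (0.81) and Nebl (0.80). With group means subtracted, r was 0.69, 0.63, 0.62, 0.73 and 0.58 in the same order. Gm19389 had the largest KO differences of the 5, with 1.09 ± 0.20 for females, 1.05 ± 0.20 for intact males and 1.01 ± 0.20 for GDX males. Pex5l ran 0.33 ± 0.19, 0.75 ± 0.19 and 0.64 ± 0.19 in the same settings, smallest in females as for G6pc. They were picked by likeness to G6pc and carry no test here.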

How the data were processed

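Whole-gland RNA of 24 samples was measured on mouse gene arrays, after biotinylated cDNA had been made from 500 ng of total RNA, per the labels' protocols. The deposited values are log2 signals made by the authors with RMA (background correction, quantile normalization and probe set summary), named per the submitters' processing notes. The software, its version and the annotation build are not given in the sources used. RMA values compare arrays for 1 probe set, not genes with each other, and compress differences of dim genes. Array medians lay between 5.20 and 5.29, and r between arrays of a group was 0.989 to 0.995 over all 32202 probe sets, with no array deposited in duplicate. The precision is limited by the number of arrays and, for values near 5, by the dim signal.

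Only the 22943 of 32202 probe sets with a single symbol were used; 1731 carry more than 1 symbol and 7528 lack one. Each of 21957 genes was read from its probe set with the highest mean, and 14411 with a log2 value over 5 in at least 4 arrays were tested. All comparisons are contrasts of 1 limma model of the 6 group means over 24 arrays (R 4.3.3, limma 3.58.1, 18 residual degrees of freedom), with Benjamini-Hochberg adjustment over all genes tested and calls at 0.05. Errors after ± are limma standard errors for differences and SD for group means. The script was tested on simulated data. The members, lists and tests were chosen with earlier results of these data known. The genes named from the lists are, for each KO against WT comparison, up to 4 called genes of the largest change, and for other comparisons up to 2. Pfkfb2 in KO females against KO intact males is outside that rule, as Pdk3 and Txnip fell more there. The cell type markers, Creb1, Crtc1, Crtc2, Crtc3 and the Eno3 value in intact males were added after their values were seen. The adipocyte and medulla covariates are means of such markers, so fits with them carry the same limit.

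The labels number the arrays 1 to 4 in each group. In GDX males, KO and WT arrays of the same number deviated together from their group means (r 0.12 to 0.24 for all 4 pairs, each best with its own number). The labels do not say that equal numbers belong together. A replicate block was therefore tried as an alternative, and the main tests in GDX males do not use it. In the other comparisons same-numbered arrays correlated between -0.24 and 0.24, not all above 0.1. Alternatives were other filters, a further quantile normalization, the groups of a contrast alone, a trended robust prior, the replicate block, adipocyte and medulla markers as covariates, another probe set and each array left out; Ucp1 as a covariate and the block in GDX groups alone were added after the data were seen.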

Additional observations from a re-analysis of the deposited data

Results flagged for a closer look

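Among 48 groups of 4 values (8 genes in 6 groups), 3 held an array far from the other 3 of its group by Dixon's test, a number near what chance gives, about 1 in 20. G6pc on KO male array 1 was 8.81, a gap of 0.93 of the group's range, where Prkar1a read 6.89 and Ucp1 9.53, against 4.77 to 5.17 for Ucp1 on the other KO male arrays. Without that array the G6pc difference in intact males was 1.91. Slc2a1 on WT female array 1 was 8.06 (0.91 of the range), and Hk2 on KO female array 3 was 7.74 (0.89 of the range). The KO difference in Hk1 was lower in females than in intact males by -0.31 ± 0.10 in the limma test of the difference itself (adjusted p 0.0423).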

How the results depend on the processing

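Of 874 values of the 7 tested genes under alternatives, 798 were counted as unchanged, which in general meant the same direction and side of the threshold. For G6pc in KO against WT it meant the same direction and a shift under the SD within groups, whatever the threshold. For comparisons of its KO difference it meant a shift under that SD alone, and GDX minus intact males ran from -0.49 to 0.13. The G6pc difference between KO and WT stayed positive in all of its alternatives. With the adipocyte covariate the sign turned for Pck1 in KO females (0.47) and WT females against males (-0.39), Hk2 in KO GDX (0.12), WT GDX against intact (-0.06) and WT females against males (0.00), Ppargc1a after gonadectomy in KO (-0.18) and WT (-0.01) and in the KO difference of females minus intact males (0.23), and Slc37a4 in intact (0.01) and GDX males (0.03); genes called were 25 for KO in intact males and 11 for its change with gonadectomy, and 1 member was called for females minus GDX males. With Ucp1 it turned for Hk2 (0.07) and Slc37a4 (0.02) in KO GDX males and Ppargc1a after gonadectomy in KO (-0.04), with 30 and 8 genes in those 2 contrasts and 2 members for females minus intact males. With the medulla covariate it turned for Hk1 in intact males (-0.04), Hk2 in KO females (-0.36) and its change with sex (-0.10), Slc2a1 in females (-0.04) and Slc37a4 in GDX males (0.00). Genes called were then 2490 for KO in females, 1030 between KO sexes, 1017 for gonadectomy in KO, and 277, 80 and 2 for the differences between KO effects (females minus intact, females minus GDX, GDX minus intact), with 1, 0 and 0 members called in KO females, between KO sexes and for females minus intact males. A further quantile normalization turned Ppargc1a between WT sexes (0.01) and Slc37a4 in GDX males (0.02). That normalization, no filter and the replicate block each left 0 members called for females minus intact males. With the groups of a contrast alone, genes called were 0 for KO in intact males, 49 in GDX males, 149 for gonadectomy in WT and 9 for GDX minus intact, and members called were 0, 0, 1 (gonadectomy in KO), 4 (between KO sexes) and 0 (females minus intact males). The other Slc2a1 probe set gave -0.15 in intact males. The fit of GDX males alone with a replicate block called 118 genes, and G6pc kept 2.04. With the block over all 24 arrays, Hk1 for females minus intact males had adjusted p 0.0574 and Pck1 between KO sexes 0.0378. No other call of a member changed with that block. The cause of these changes was not tested.

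Without 1 array, values ranged from -0.07 to 0.16 for Slc2a1 in KO females, -0.10 to 0.02 for Slc37a4 and -0.01 to 0.08 for Hk1 in intact males, -0.06 to 0.06 for Slc37a4, -0.12 to 0.90 for Pck1 and -0.51 to 0.33 for Hk2 in GDX males, -0.07 to 0.66 for Ppargc1a after gonadectomy in WT, and -0.07 to 1.01 for Pck1 and -0.20 to 0.15 for Ppargc1a between WT sexes. Genes called ranged from 4 to 24 for KO in intact males, 214 to 1180 in GDX males, 292 to 788 and 1374 to 2662 for gonadectomy in WT and KO, 236 to 663 for females minus GDX males and 2 to 88 for GDX minus intact males. Members called ranged from 0 to 1 for KO in intact males and for gonadectomy in either genotype, and from 0 to 2 for females minus intact males. Signal near 5 limits G6pc in WT, Ppargc1a in KO and Fbp1.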
